A study of Mus musculus with 12 samples.

Results

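A set of 40 genes of protein folding in the endoplasmic reticulum (ER) and of the unfolded protein response (UPR) were described in mouse liver, chosen by a fixed list of symbols. They were 9 ER chaperones and co-chaperones, 2 lectin chaperones, 6 disulfide isomerases and oxidases, 3 UPR sensors, 5 transcription factors, 2 targets of ATF4 and CHOP, 7 genes of ER-associated degradation (ERAD) and 6 genes of the protein translocon. All 40 were found among the 51912 genes counted, and 39 of them were among the 8594 genes with enough counts to be tested. The exception was Asns, whose highest count was 9.

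Liver RNA came from 12 adult male mice in 4 groups of 3. WT mice were given either corn oil or CITCO, a small molecule that activates the human constitutive androstane receptor (CAR). Mice in which mouse Car and Pxr were replaced by the human receptors (hCAR/hPXR) and mice lacking Car but carrying human PXR (Car KO/hPXR), both made on a C57BL/6NTac background, were given CITCO. CITCO was injected intraperitoneally once a day for 4 days at 10 mg/kg according to the sample labels (the study's methods also name a higher dose), and livers were taken on day 5. In the libraries used here corn oil was given to WT mice alone, so in the humanised mice the effect of CITCO and that of the genotype cannot be told apart. Reads came from the 3′ ends of messenger RNA and were counted on mouse genes, with 1167008 to 2341557 counts per library. Values are given as CPM, counts scaled to the size of the library after TMM normalisation, on which 3 counts are worth between 1.34 and 2.505 CPM. The mouse genes for PXR (Nr1i2) and CAR (Nr1i3) had 100 counts or more in each WT library and 6 or fewer in each humanised one, and Cyp2b10, the classic CAR target, had 184 to 288 counts in hCAR/hPXR libraries and 0 to 6 in the others.

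Secretory and membrane proteins enter the ER through the translocon and are folded there by chaperones, among which BiP (the product of Hspa5) binds unfolded chains and also holds the stress sensors inactive. When unfolded protein builds up, 3 sensors signal: IRE1 (Ern1) splices the Xbp1 messenger RNA, ATF6 is cut to release a transcription factor, and PERK (Eif2ak3) slows translation while favouring that of Atf4. XBP1 and ATF6 raise chaperones and ERAD genes, and ATF4 raises Ddit3 (CHOP), Trib3 and amino acid genes. Hepatocytes secrete most plasma proteins and so carry a high folding load at rest, and CAR activation is known for expanding their smooth ER.

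The hCAR/hPXR group had the highest of the 4 group means for 27 of the 39 members tested, which was the case for 27.9% of all genes tested. Without replicate 3 of the WT CITCO group, a library described below, this count was 22 (26.6% of all genes), and WT CITCO mice had the highest mean for 13 members (26.9%). Its mean was the lowest for 2 members, Crebl2 and Derl2, against 24.9% of all genes. The Car KO/hPXR group had the lowest mean for 19 of the 39, against 25.0% of all genes (22 and 24.3% without that library). The corn oil group had the highest mean for 3 (Atf4, Crebl2 and Trib3), against 23.0% of all genes. Without the library hCAR/hPXR was lowest for 2 (23.4%) and corn oil highest for 3 (22.8%). The test for any difference among the 4 groups (adjusted p under 0.05) was passed by 2 of the 39 members and by 1.42% of all genes: Hspa5 (adjusted p = 0.0129) and Creld2 (adjusted p = 0.0260), by the quasi-likelihood method of edgeR with a Benjamini-Hochberg correction over the 8594 genes, as for each adjusted p below unless another tool is named. Hspa5 passed in 15 of 16 alternative analyses, failing without hCAR/hPXR replicate 2 (adjusted p = 0.0616), and Creld2 in 9 of 16, failing only where 1 library was left out (hCAR/hPXR replicate 1, 2 or 3, corn oil replicate 1 or 2, WT CITCO replicate 1 or Car KO/hPXR replicate 2; adjusted p up to 0.0743). An unadjusted p under 0.05 was found for 16 members, or 41.0%, against 11.6% of all genes. The heatmap of the 39 members shows the hCAR/hPXR columns mostly above and the Car KO/hPXR columns mostly below each gene's mean.

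**Figure D1:**
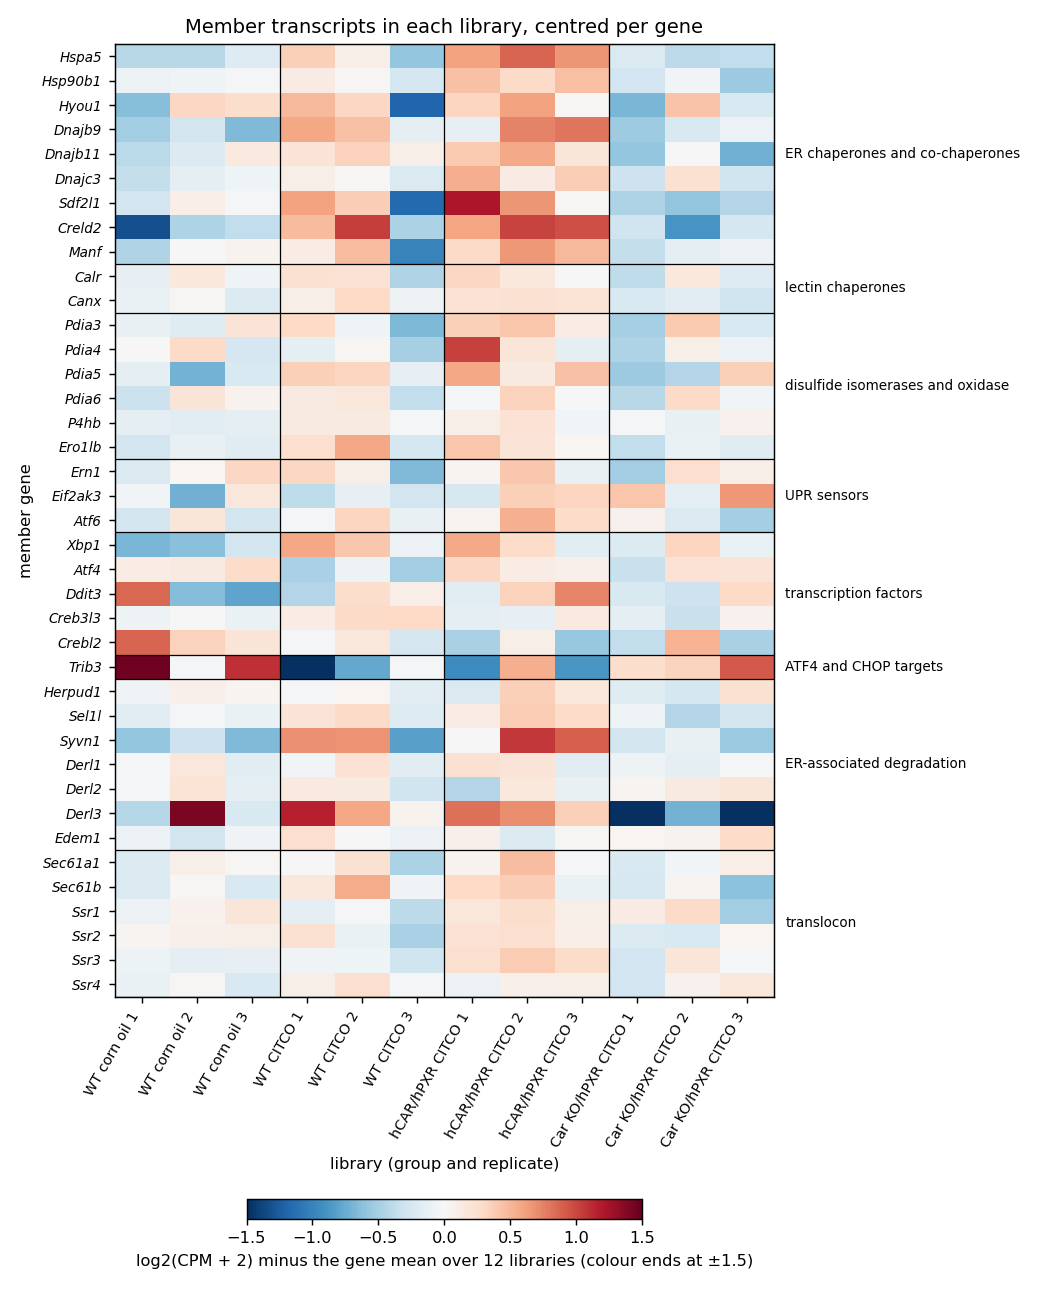
Each row is 1 of the 39 members tested, grouped by role, and each column 1 of the 12 libraries; the colour gives log2(CPM + 2) minus the gene's mean over the libraries, ending at ±1.5. The 3 hCAR/hPXR libraries are mostly red in the upper rows (chaperones), the third WT CITCO library differs from the other 2 of its group, and Derl3 and Trib3 span the widest ranges.

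Within its group, 1 library stood furthest apart for these genes. Replicate 3 of the WT mice given CITCO had the lowest CPM of its group in 35 of the 39 members, whereas it was the lowest in 35.2% of all genes, close to the share of any library. Replicate 2 of the same group was lowest in 0 of the 39 and in 33.5% of all genes. Counts of members by direction that rest on the WT CITCO group are therefore given with and without this library, an alternative chosen after seeing the data. Smaller leanings were seen in other groups. Car KO/hPXR replicate 1 was the lowest of its group in 20 of the 39 (32.4% of all genes). Replicate 2 of hCAR/hPXR was the highest of its group in 23 (33.5%). Markers of other cells were also compared, because in whole liver fewer cells of a type and less RNA per cell cannot be told apart. All 6 Kupffer cell markers (the resident macrophages) were detected in every library. Their summed level was 324.5 to 412 CPM in hCAR/hPXR, 286 to 308 in Car KO/hPXR, 250.5 to 387 in WT CITCO and 211 to 281 in WT corn oil mice. It was thus higher in each hCAR/hPXR mouse than in any Car KO/hPXR or corn oil mouse. The rise was not shared by all 6 markers. In unscaled counts, Cd5l gave 495, 452 and 205 of the 795, 639 and 389 in hCAR/hPXR replicates 1, 2 and 3. Clec4f had 117, 54 and 37 there against 107, 77 and 74 in corn oil libraries, and Csf1r 43, 37 and 47 against 62, 56 and 37. The 4 stellate cell and fibroblast markers, of which Col1a1 was at 0 in 1 library, summed to 198 to 237 CPM in hCAR/hPXR mice. Their sum was 138 to 192 in Car KO/hPXR, 178 to 189 in corn oil and 192 to 288.5 in WT CITCO mice. Dcn gave most of these counts, 411 of 458 in hCAR/hPXR replicate 1. Against corn oil mice the higher sum was not shared by all 4 markers. In unscaled counts, Lrat had 18, 19 and 7 in hCAR/hPXR against 44, 10 and 30 in corn oil libraries. Col3a1 had 19, 9 and 14 against 19, 14 and 15. The summed level of the 4 endothelial markers was lower in each hCAR/hPXR mouse, at 167 to 186 CPM, than in any Car KO/hPXR or corn oil mouse. It was 194.5 to 226 in Car KO/hPXR, 199.5 to 218 in corn oil and 176 to 206 in WT CITCO mice. This was not shared by all 4 markers. In unscaled counts, Kdr gave 188, 205 and 120 of the 323, 321 and 219 in hCAR/hPXR replicates 1, 2 and 3. Pecam1 had 18, 17 and 22 there against 18, 12 and 8 in Car KO/hPXR libraries, and Clec4g 66, 53 and 51 against 56, 35 and 38. The 5 red blood cell markers summed to 1859 to 2192 CPM in hCAR/hPXR and 2138 to 3424 in Car KO/hPXR mice. Their sum was 2298 to 3882 in corn oil and 1987 to 3985 in WT CITCO mice. The 4 cholangiocyte markers summed to 13.9 to 18.4, 15.03 to 22.2, 20.6 to 21.9 and 7.74 to 16.9 CPM in the same order of groups. Both sums were lower in each hCAR/hPXR mouse than in any corn oil mouse. Of the 31, 24 and 22 cholangiocyte counts in hCAR/hPXR replicates 1, 2 and 3, Sox9 gave 30, 21 and 22. The part of these shifts in the differences below was not tested. Secretory cells of other kinds, rich in folding genes, left few counts: 4 of 10 exocrine pancreas markers (Amy2a2, Prss2, Cpa1 and Cpb1) had 0 counts in each library, the 10 together had 12 to 45 counts, mostly of Cela1, and the 7 plasma and B cell markers summed to 15.9 to 56.7 CPM. The 6 hepatocyte markers summed to 19940, 21320 and 36090 CPM in hCAR/hPXR replicates 1, 2 and 3 and to 26490 to 34620 in the other 9 libraries, so 2 of the 3 hCAR/hPXR mice were the lowest of all 12 and the third was the highest. The part of this in the results was not tested.

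Hspa5, which encodes BiP (GRP78), the main Hsp70 of the ER, was the member with the smallest p. It was at 793, 792 and 930 CPM in the corn oil mice, 1364, 1131 and 711 in WT mice given CITCO, 1611, 1946 and 1677 in hCAR/hPXR mice and 911, 807 and 818 in Car KO/hPXR mice. Each hCAR/hPXR mouse lay above each of the other 9 mice, and the Car KO/hPXR and corn oil ranges overlapped. The group means were 838 ± 79.3 (corn oil), 1069 ± 331 (WT CITCO), 1745 ± 178 (hCAR/hPXR) and 846 ± 57.1 (Car KO/hPXR; SD, n = 3 each). The fitted hCAR/hPXR level was 2.06-fold that of Car KO/hPXR (log2 fold change 1.05, standard error 0.20, adjusted p = 0.0206) and 2.08-fold that of corn oil mice (1.06, standard error 0.20, adjusted p = 0.0117). Hspa5 was the only member called between the 2 humanised groups, where 0.582% of all genes were called. Against WT mice given CITCO the fitted hCAR/hPXR level was 1.63-fold (log2 fold change 0.71, adjusted p = 0.187), which did not pass. Between Car KO/hPXR and corn oil mice the log2 fold change was 0.01 (standard error 0.20). Of the 18 alternative analyses, the call against Car KO/hPXR mice held in 13 and was lost without any 1 of the Car KO/hPXR mice or without hCAR/hPXR replicate 2 or 3 (adjusted p up to 0.114), while the log2 fold change stayed between 0.958 and 1.099. The call against corn oil held in 16 of 18 and was lost without corn oil replicate 1 or 2 (adjusted p up to 0.0859). GRP78 protein served as the loading control of the study's immunoblots of pooled microsomes. The values here are RNA and do not give the level of that protein. The study also followed P450 induction by a reporter gene, RNA, proteomics and immunohistochemistry.

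Creld2, an ER protein with a role in folding and disulfide exchange that is typically induced by ER stress, had the largest fold change of the chaperone group. Its values were 14.3, 27.5 and 29.6 CPM in corn oil mice, 54.5, 81.6 and 27.4 in WT CITCO mice, 59.6, 80.4 and 77.6 in hCAR/hPXR mice and 31.1, 20.04 and 32.03 in Car KO/hPXR mice. The hCAR/hPXR mice lay above the corn oil and Car KO/hPXR mice without overlap, and the WT CITCO mice were split, with replicate 3 within the corn oil range. The means were 72.5 ± 11.3 CPM in hCAR/hPXR and 23.8 ± 8.27 in corn oil mice (SD, n = 3 each), and the fitted fold change was 3.09 (log2 fold change 1.63, standard error 0.33, adjusted p = 0.0175). With Hspa5 it made up the 2 members called between hCAR/hPXR and corn oil mice, where 0.989% of all genes were called. This call held in 13 of 18 alternatives and was lost without any 1 of the corn oil mice or without hCAR/hPXR replicate 2 or 3 (adjusted p up to 0.101). Against Car KO/hPXR mice the difference was 1.37 on the log2 scale (adjusted p = 0.0673). Between the 2 WT groups it was 1.22 (adjusted p = 0.184, and 0.0228 without WT CITCO replicate 3; over the 18 alternatives the adjusted p lay between 0.000430 and 0.562).

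The promoters of these 2 genes are shown because both hold the ER stress response element, the sequence through which ATF6 and XBP1 act. Sequences are from RefSeq on GRCm38.p6, 250 bases before to 50 after the start site (position 0), 5′ to 3′ along the gene, with the element in capitals; the Hspa5 promoter is chr2:34771840-34772139 (+) and the Creld2 promoter chr15:88819396-88819695 (+). In the GENCODE M21 annotation of GRCm38 the gene Hspa5 spans chr2:34771970-34777547 and Creld2 chr15:88819646-88826683.
Hspa5: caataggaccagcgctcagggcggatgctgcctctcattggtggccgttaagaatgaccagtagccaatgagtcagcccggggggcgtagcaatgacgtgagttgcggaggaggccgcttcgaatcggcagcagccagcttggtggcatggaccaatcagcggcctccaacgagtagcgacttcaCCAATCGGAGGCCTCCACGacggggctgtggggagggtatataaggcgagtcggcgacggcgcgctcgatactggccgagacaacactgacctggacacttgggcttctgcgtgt
Creld2: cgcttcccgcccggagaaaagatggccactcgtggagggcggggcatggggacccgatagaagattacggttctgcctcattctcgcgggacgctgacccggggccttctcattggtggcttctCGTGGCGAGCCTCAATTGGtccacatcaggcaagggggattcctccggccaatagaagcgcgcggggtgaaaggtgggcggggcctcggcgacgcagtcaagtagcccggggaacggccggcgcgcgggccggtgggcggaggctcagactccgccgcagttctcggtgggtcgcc
The Hspa5 element lay at -65 to -47 and the Creld2 element at -126 to -108, the latter on the opposite strand.

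The other 7 chaperones and co-chaperones did not pass the test in any comparison. With Hspa5 and Creld2, all 9 had higher means in hCAR/hPXR mice than in the Car KO/hPXR group (median log2 fold change 0.83, range 0.43 to 1.37), against 51.5% of all genes and a median of 0.01. For 8 of the 9 the unadjusted p was under 0.05, as it was for 5.6% of all genes in that direction. Hsp90b1, which encodes the Hsp90 of the ER (GRP94), was at 502 to 531 CPM in corn oil, 445 to 582 in WT CITCO, 656 to 733 in hCAR/hPXR and 367 to 519 in Car KO/hPXR mice. Each hCAR/hPXR mouse was above each other mouse, and the log2 fold change was 0.67 against Car KO/hPXR mice (adjusted p = 0.0628) and 0.43 against WT CITCO mice (adjusted p = 0.389). Dnajb11 and Dnajb9, which encode Hsp40 partners of BiP, were higher in hCAR/hPXR mice by 0.83 each on the log2 scale (adjusted p = 0.114 and 0.224). The Dnajb11 ranges of the humanised groups did not overlap, and those of Dnajb9 overlapped through hCAR/hPXR replicate 1. Sdf2l1, a partner of Dnajb11, had 63.2, 42.8 and 26.7 CPM in hCAR/hPXR and 18.4, 16.7 and 18.9 in Car KO/hPXR mice (log2 fold change 1.31, adjusted p = 0.151). Dnajc3, an inhibitor of PERK and co-chaperone, and Manf, a secreted ER stress protein, differed by 0.46 and 0.68 in the same comparison (adjusted p = 0.328 and 0.323). Manf overlaps Rbm15b and Dcaf1, and its expected count was not whole in 10 libraries. The one without an unadjusted p under 0.05 was Hyou1, a nucleotide exchange factor for BiP (log2 fold change 0.43, adjusted p = 0.735), whose lowest value, 170 CPM, was in WT CITCO replicate 3.

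**Figure D2:**
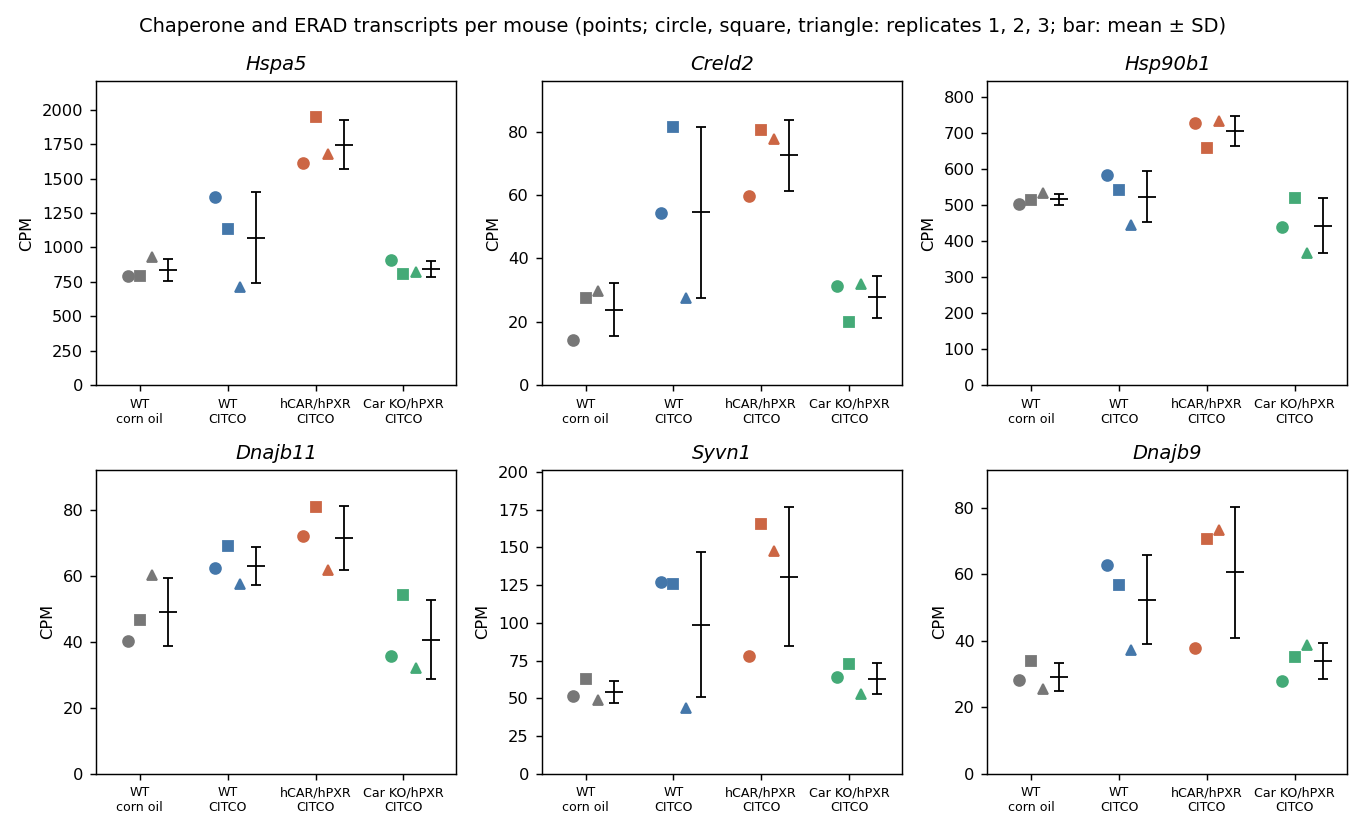
Points give CPM of 1 mouse each (circle, square and triangle for replicates 1, 2 and 3) for Hspa5, Creld2, Hsp90b1, Dnajb11, Syvn1 and Dnajb9 in the 4 groups, and the black mark and bar give the mean ± SD (n = 3). For Hspa5 and Hsp90b1 the 3 hCAR/hPXR mice are above the other 9 mice, and for Creld2 and Syvn1 the triangle of WT CITCO mice (replicate 3) sits with the corn oil mice.

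The ER stress response element was searched on both strands as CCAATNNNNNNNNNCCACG in each promoter of this RefSeq table. It was found in 9 of the 32 members with a promoter (28.1%) and in 39 of all 32851 promoters (0.119%). Members were counted by gene (the 32 have 34 promoters), whereas the second share counts promoters. Because the list was chosen to hold UPR genes, the higher share among members describes the list and is not a test. The members were Hspa5, Creld2, Hsp90b1 (with 2 copies), Dnajc3, Calr, Canx, Pdia6, Syvn1 and Derl3. The copies of the other 7 genes are printed with 15 bases on each side, element in capitals, along the gene; on the opposite strand it reads from CGTGG to ATTGG.
Hsp90b1 upstream copy, chr10:86705623-86705671 (-): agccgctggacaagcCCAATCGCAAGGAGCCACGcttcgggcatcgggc
Hsp90b1 downstream copy, chr10:86705518-86705566 (-): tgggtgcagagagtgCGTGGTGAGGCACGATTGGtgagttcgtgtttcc
Dnajc3, chr14:118937812-118937860 (+): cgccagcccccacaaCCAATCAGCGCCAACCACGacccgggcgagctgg
Calr, chr8:84847060-84847108 (-): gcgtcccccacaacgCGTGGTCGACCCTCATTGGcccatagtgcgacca
Canx, chr11:50325785-50325833 (-): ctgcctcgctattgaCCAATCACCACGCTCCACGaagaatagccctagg
Pdia6, chr12:17266476-17266524 (+): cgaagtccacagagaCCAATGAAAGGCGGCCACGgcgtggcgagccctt
Syvn1, chr19:6046517-6046565 (+): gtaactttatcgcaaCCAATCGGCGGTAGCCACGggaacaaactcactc
Derl3, chr10:75893227-75893275 (+): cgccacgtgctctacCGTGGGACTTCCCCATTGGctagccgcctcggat
The 10 copies lay between -212 and -26. The 9 genes with the element had a median log2 fold change of 0.67 between the humanised groups, with 9 of 9 higher in hCAR/hPXR. The 22 tested members with a promoter but without a match to this exact sequence had a median of 0.22, with 18 of 22 higher. Medians with and without a match were 0.38 and 0.19 for hCAR/hPXR against WT CITCO and 0.45 and 0.32 against corn oil. For Car KO/hPXR they were -0.34 and -0.05 against WT CITCO and -0.02 and -0.06 against corn oil. For WT CITCO against corn oil they were 0.21 and 0.09. Other or looser forms of the element were not searched, so some of the 22 may hold one. Among the 9, Pdia6 had the smallest difference between the humanised groups (0.14) and Derl3 the largest (3.12), so a match went with a wide range of values. The core of the UPR element, TGACGTGG, was found in 0 of the 32 and in 0.676% of all promoters. The C/EBP-ATF response element that ATF4 binds, TGATGNAA, was found in 3 of the 32 (Asns, Trib3 and Herpud1; 9.38%) and in 3.97% of all promoters. There was no entry for Atf6, Crebl2, Derl1, Ero1lb, Hyou1, Manf, Sec61a1 and Ssr2.

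The lectin chaperones calreticulin (Calr) and calnexin (Canx) retain glycoproteins until they are folded. Canx was at 352, 380 and 326 CPM in corn oil mice, 402, 465 and 357 in WT CITCO mice, 439, 441 and 435 in hCAR/hPXR mice and 320, 337 and 305 in Car KO/hPXR mice. The Car KO/hPXR mice were below each WT CITCO and hCAR/hPXR mouse, with a log2 fold change of 0.45 between the humanised groups (standard error 0.14, adjusted p = 0.214; 0.0423 by DESeq2, and between 0.0423 and 0.531 over the 18 alternatives). Calr was at 458, 556 and 475 CPM in corn oil mice, 585, 582 and 364 in WT CITCO mice, 619, 559 and 495 in hCAR/hPXR mice and 381, 556 and 436 in Car KO/hPXR mice. These ranges overlapped for each pair of groups, and the largest log2 fold change, 0.29 between the humanised groups, had a standard error of 0.19.

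Among the 6 disulfide isomerases and oxidases, which form and reshuffle disulfide bonds, no member was called in any of the 6 pairwise comparisons. All 6 had higher means in hCAR/hPXR mice than in the Car KO/hPXR group (median log2 fold change 0.43) and the corn oil group (0.39). Pdia5 was at 25.1, 16.2 and 23.6 CPM in corn oil mice, 36.3, 35.3 and 25.3 in WT CITCO mice, 42.5, 30.7 and 38.4 in hCAR/hPXR mice and 18.4, 20.04 and 36.1 in Car KO/hPXR mice. The corn oil mice were below each WT CITCO and hCAR/hPXR mouse (log2 fold change 0.76 between hCAR/hPXR and corn oil, standard error 0.27, adjusted p = 0.265). Pdia4 was at 29.6, 36.7 and 24.8 CPM in corn oil mice, 26.6, 30.4 and 20.4 in WT CITCO mice, 62.7, 34.1 and 26.7 in hCAR/hPXR mice and 21.0, 31.7 and 27.9 in Car KO/hPXR mice. A single mouse, hCAR/hPXR replicate 1, was far above the others, and the difference of 0.69 from WT CITCO mice did not pass (adjusted p = 0.490). P4hb, the most studied isomerase of the family (PDI), was at 707 to 722 CPM in corn oil mice and at 737 to 925 in the mice given CITCO. The 9 CITCO mice of the 3 genotypes lay above the 3 corn oil mice, but by small steps: the log2 fold changes against corn oil were 0.24 (WT), 0.24 (hCAR/hPXR) and 0.13 (Car KO/hPXR), each with a standard error of 0.14 and none called. Pdia3, Pdia6 and Ero1lb (an oxidase that feeds PDI) were higher in hCAR/hPXR than Car KO/hPXR mice by 0.38, 0.14 and 0.47 on the log2 scale, and none passed.

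None of the 3 sensors was called. Their largest log2 fold change was 0.68, for Eif2ak3 between Car KO/hPXR and WT CITCO mice (standard error 0.32, adjusted p = 0.532). Eif2ak3 was at 17.02, 9.87 and 19.9 CPM in corn oil mice, 12.97, 15.9 and 14.1 in WT CITCO mice, 14.5, 23.1 and 22.5 in hCAR/hPXR mice and 24.1, 15.9 and 28.8 in Car KO/hPXR mice. Ranges overlapped between each pair of groups. Atf6 was at 31.4, 43.7 and 31.4 CPM in corn oil mice, 37.6, 48.4 and 35.2 in WT CITCO mice, 39.4, 56.1 and 46.7 in hCAR/hPXR mice and 40.0, 32.6 and 26.3 in Car KO/hPXR mice. Its log2 fold change between the humanised groups was 0.51 (standard error 0.23, adjusted p = 0.446), and 1 Car KO/hPXR mouse lay within the hCAR/hPXR range. Ern1 differed by at most 0.20 on the log2 scale in any comparison.

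The transcription factors did not share one order of groups. Xbp1, the factor downstream of IRE1, was at 123, 129 and 165 CPM in corn oil mice, 300, 265 and 189 in WT CITCO mice, 298, 242 and 179 in hCAR/hPXR mice and 173, 251 and 186 in Car KO/hPXR mice. The corn oil mice lay below each of the 9 mice given CITCO, whatever their genotype. The log2 fold changes against corn oil were 0.86 in WT (standard error 0.21, adjusted p = 0.138), 0.79 in hCAR/hPXR (adjusted p = 0.0976) and 0.55 in Car KO/hPXR mice (adjusted p = 0.737). The WT comparison passed without WT CITCO replicate 3 (adjusted p = 0.0381), by DESeq2 and without a filter on low counts, with adjusted p between 0.00151 and 0.502 over the 18 alternatives. Counts per gene do not separate the spliced from the unspliced Xbp1 message.

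Atf4, the factor downstream of PERK, gave the opposite sign in WT mice: 79.7, 81.1 and 90.0 CPM with corn oil and 51.9, 69.8 and 50.7 with CITCO. The 3 WT CITCO mice were below each corn oil mouse (log2 fold change -0.54, standard error 0.19, adjusted p = 0.349) and below each hCAR/hPXR mouse. The hCAR/hPXR mice had 91.7, 79.8 and 77.6 CPM and the Car KO/hPXR mice 57.8, 86.0 and 84.6, both overlapping the corn oil range. Between hCAR/hPXR and WT CITCO mice the log2 fold change was 0.53 (adjusted p = 0.372). Ddit3, which encodes CHOP, had 15.7, 4.23 and 3.62 CPM in corn oil mice, 5.19, 9.68 and 8.44 in WT CITCO mice, 6.74, 10.4 and 14.2 in hCAR/hPXR mice and 6.35, 5.85 and 9.86 in Car KO/hPXR mice. The ranges overlapped between each pair of groups, and each of its 12 expected counts was not whole, the gene overlapping Mars on the other strand. Creb3l3, a liver factor released from the ER membrane, was at 268 to 289 CPM in corn oil and 311 to 353 in WT CITCO mice, ranges that did not touch (log2 fold change 0.29, adjusted p = 0.584). Crebl2, a relative of the CREB factors, was lower in hCAR/hPXR (9.18 to 15.6 CPM) than in corn oil mice (16.9 to 28.2), with a log2 fold change of -0.89 (adjusted p = 0.317).

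Trib3, a pseudokinase raised by ATF4 and CHOP, had 33.1, 10.6 and 25.4 CPM in corn oil mice, 1.297, 5.53 and 10.6 in WT CITCO mice, 4.66, 16.8 and 5.01 in hCAR/hPXR mice and 13.3, 14.2 and 22.2 in Car KO/hPXR mice. The corn oil mice were all above the highest WT CITCO mouse, the closest by less than 1 count's worth, and the fitted fold change was 4.06 downwards, with the lower mean resting on 2, 8 and 15 counts (log2 fold change -2.02, standard error 0.57, adjusted p = 0.202; 0.000115 to 0.538 over 17 alternatives). Trib3 was also lower in WT CITCO than in Car KO/hPXR mice without overlap (adjusted p = 0.409). It was the member with the lowest fold change between the humanised groups (-0.87, hCAR/hPXR over Car KO/hPXR), where most members were higher. Asns, which encodes asparagine synthetase, had 0, 0 and 3 counts in corn oil, 2, 0 and 0 in WT CITCO, 4, 3 and 9 in hCAR/hPXR and 1, 0 and 8 in Car KO/hPXR libraries, too few to be tested.

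**Figure D3:**
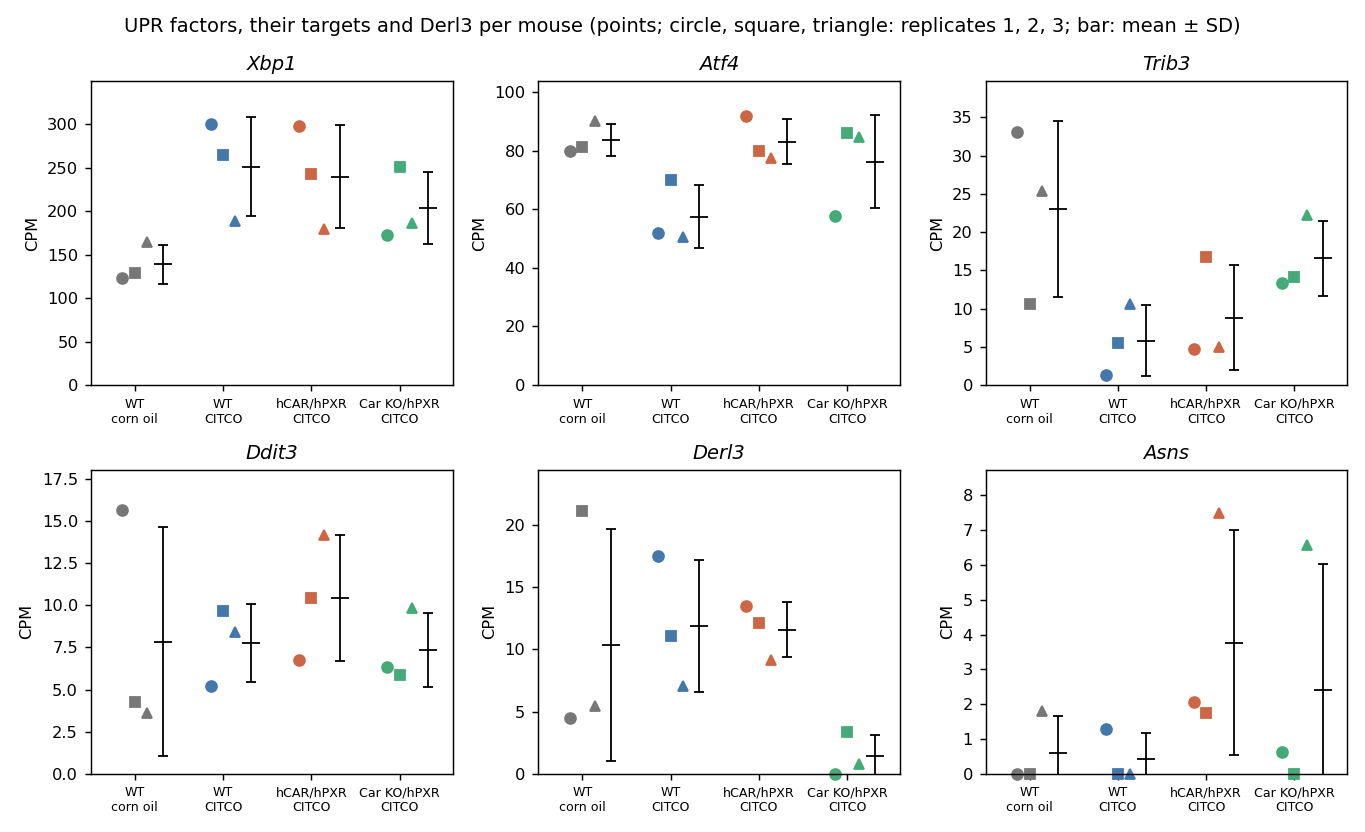
Points give CPM of 1 mouse each (circle, square and triangle for replicates 1, 2 and 3) for Xbp1, Atf4, Trib3, Ddit3, Derl3 and Asns, and the black mark and bar give the mean ± SD (n = 3). The 3 corn oil mice are lowest for Xbp1, the 3 WT CITCO mice are below the corn oil mice for Atf4 and Trib3, and the Car KO/hPXR mice are lowest for Derl3.

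In ERAD, misfolded proteins are passed back to the cytosol and ubiquitylated. Syvn1, which encodes the ubiquitin ligase HRD1, was at 51.5, 62.8 and 48.9 CPM in corn oil mice, 127, 126 and 43.6 in WT CITCO mice, 78.2, 166 and 148 in hCAR/hPXR mice and 64.2, 72.6 and 52.6 in Car KO/hPXR mice. The hCAR/hPXR mice lay above the corn oil and Car KO/hPXR mice, and WT CITCO replicate 3 had the lowest value of all 12. The log2 fold changes of hCAR/hPXR were 1.26 against corn oil (standard error 0.32, adjusted p = 0.0707) and 1.04 against Car KO/hPXR mice (adjusted p = 0.203). All libraries share 1 estimate of the spread, so a mouse outside the 2 groups compared can move these p-values. Both differences passed without WT CITCO replicate 3 (adjusted p = 0.0104 and 0.0462). The value against corn oil ranged from 5.24e-07 to 0.288 over the 18 alternatives and that against Car KO/hPXR mice from 0.000123 to 0.531. Syvn1 overlaps Mrpl49 on the other strand, and 9 of its 12 expected counts were not whole. Sel1l, the adaptor of HRD1, differed by 0.51 between the humanised groups without overlap (adjusted p = 0.219).

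Derl3, a derlin of the HRD1 complex, had the largest fold changes among the members. Its counts were 10, 30 and 9 in corn oil, 27, 16 and 10 in WT CITCO, 26, 21 and 11 in hCAR/hPXR and 0, 4 and 1 in Car KO/hPXR libraries. The Car KO/hPXR libraries were below each of the other 9, all of them with 9 counts or more. The log2 fold change of Car KO/hPXR was -3.15 against WT CITCO mice (standard error 0.81, adjusted p = 0.114) and -2.88 against corn oil mice (adjusted p = 0.486). Neither passed, and at these counts the size of the change is loosely set: from -4.77 to -0.84 against WT CITCO mice over 17 alternatives, of which 1, without a filter on low counts, gave a call. The other ERAD members, Herpud1, Derl1, Derl2 and Edem1, had log2 fold changes between -0.23 and 0.26 in the 6 comparisons and were not called.

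The translocon members carry chains into the ER: Sec61a1 and Sec61b are channel subunits, and Ssr1 to Ssr4 form the translocon-associated protein complex. All 6 had higher means in hCAR/hPXR mice than in the Car KO/hPXR group (median log2 fold change 0.28) and none was called. Ssr3 was at 124, 119 and 120 CPM in corn oil mice, 127, 125 and 106 in WT CITCO mice, 155, 172 and 159 in hCAR/hPXR mice and 107, 149 and 129 in Car KO/hPXR mice. The hCAR/hPXR mice lay above the other 9 mice, with log2 fold changes of 0.42 to corn oil (adjusted p = 0.280), 0.44 to WT CITCO (adjusted p = 0.350) and 0.34 to Car KO/hPXR (adjusted p = 0.443). Sec61b was at 61.4, 72.6 and 61.0 CPM in corn oil mice, 79.8, 107 and 69.0 in WT CITCO mice, 88.6, 93.1 and 66.7 in hCAR/hPXR mice and 60.4, 73.5 and 46.0 in Car KO/hPXR mice. Its ranges overlapped for each pair of groups, and the largest log2 fold change was -0.50 (Car KO/hPXR against WT CITCO, adjusted p = 0.469).

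Across comparisons that share groups, and so are not independent of each other, the members' own counts were as follows. Of the humanised groups, hCAR/hPXR had the higher mean for 34 of 39 members (51.5% of all genes), 17 of them at an unadjusted p under 0.05 (5.6% of all genes were higher at that p), and for 13 its range lay above without overlap (8.01%). There were 0 members lower at that p (5.03%) and 0 lower without overlap (7.06%). The median log2 fold change was 0.38, against 0.01 over all genes, and it was 0.23 without Car KO/hPXR replicate 1, the lowest value with 1 library left out (the highest was 0.43). Between hCAR/hPXR and corn oil mice, 35 were higher (51.3%), 14 of them at an unadjusted p under 0.05 (5.82%), and 16 did not overlap (8.49%), with a median of 0.31 against 0.01. Crebl2 and Trib3 were the 2 lower at that p (5.11%), and 1 was lower without overlap (7.68%), Crebl2. Leaving out WT CITCO replicate 3 gave 34 and 35 members higher in these comparisons, with 18 and 15 at an unadjusted p under 0.05 (5.75% and 5.82% of all genes).

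**Figure D4:**
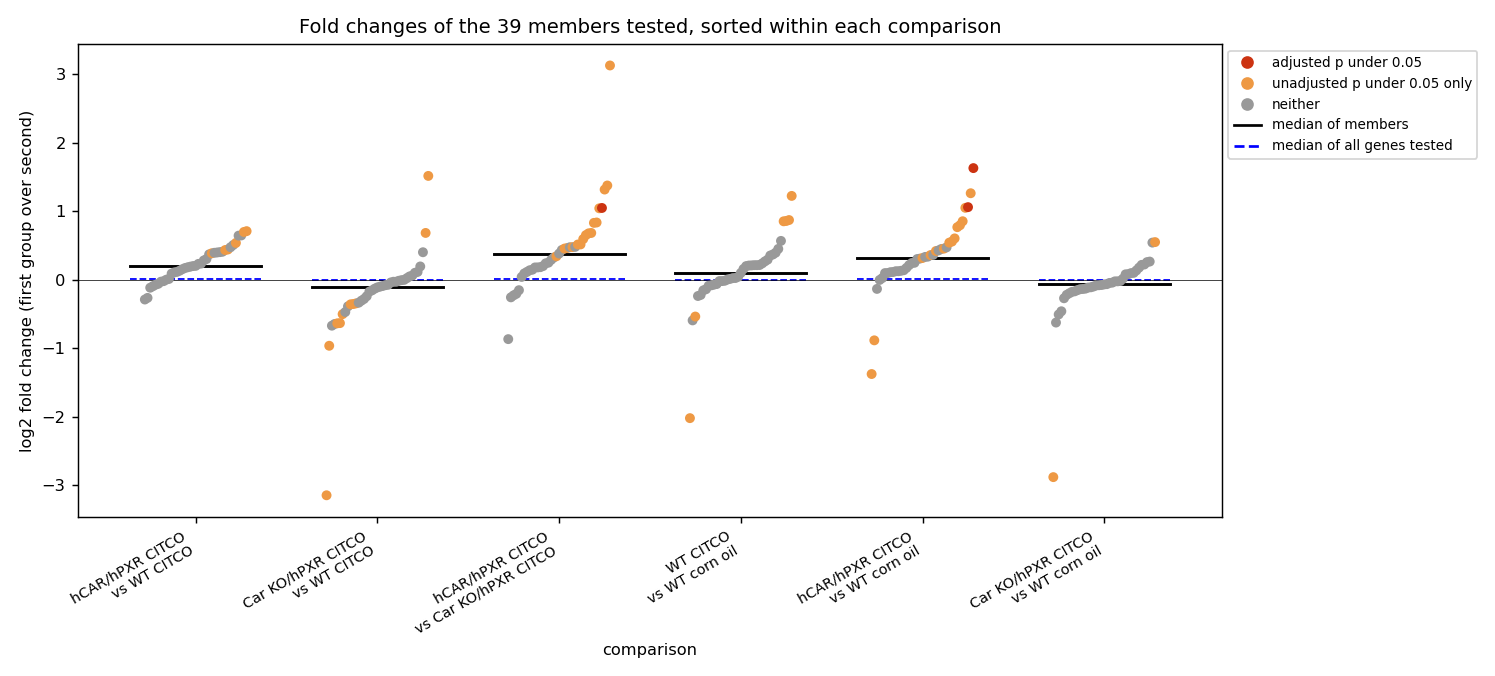
Each point is the log2 fold change of 1 of the 39 members tested (first group over second), sorted within each of the 6 comparisons; black lines give the median of the members, dashed blue lines that of all 8594 genes, and colours the p. Most members sit above 0 in hCAR/hPXR against Car KO/hPXR (median 0.38), where the red point is Hspa5. The same holds against corn oil (0.31), where the red points are Hspa5 and Creld2. The 3 comparisons without hCAR/hPXR have medians between -0.11 and 0.10.

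The comparisons with WT mice given CITCO depended on the deviating library. Between hCAR/hPXR and WT CITCO mice 0 members were called (0.407% of all genes; 1 by DESeq2, Hspa5). There were 30 of 39 higher (51.6%) and 6 higher at an unadjusted p under 0.05 (4.74%), namely Hspa5, Hsp90b1, Dnajc3, Pdia4, Atf4 and Ssr3. None was lower at that p (4.07%), and 6 were higher (7.12%) and 0 lower (6.53%) without overlap. Without WT CITCO replicate 3 there were 25 higher (51.9%), 1 of them at an unadjusted p under 0.05 (4.11%). Between Car KO/hPXR and WT CITCO mice 0 were called (0.256%; 0 by DESeq2). There were 9 of 39 higher (49.5%), 2 of them at an unadjusted p under 0.05 (4.88%), Eif2ak3 and Trib3. Of the 30 lower, 8 had an unadjusted p under 0.05 (4.42%): Creld2, Dnajb11, Dnajb9, Canx, Creb3l3, Derl3, Sel1l and Sec61b. Without overlap 1 was higher (7.45%) and 4 were lower (6.77%). Without the library 34 were lower (49.7%), 13 of them at that p (4.98%). Between WT CITCO and corn oil mice 0 were called (0.233%; 1 by DESeq2, Xbp1). Of 25 higher (50.0%), 4 had an unadjusted p under 0.05 (4.53%), Creld2, Dnajb9, Syvn1 and Xbp1, and 2 were lower at that p (4.61%), Atf4 and Trib3. Without overlap 5 were higher (6.88%) and 3 lower (7.85%). Without the library 31 were higher (49.1%), 9 of them at that p (5.25%), and Creld2, Syvn1 and Xbp1 were called. Between Car KO/hPXR and corn oil mice 0 were called (0.0465%; 0 by DESeq2) and 13 were higher (50.0%). Of these, 1 was higher at an unadjusted p under 0.05 (2.9%), Xbp1, and 1 was lower at that p (2.7%), Derl3. Without overlap 3 were higher (5.63%) and 3 lower (6.0%).

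The pathway beyond these 40 genes was followed in a further list of 79 genes, of which 65 were tested and 0 were called in any comparison or among the 4 groups. Of all genes, 0.0465% to 0.989% were called in the 6 comparisons and 1.42% among the 4 groups. At such small shares, 0 calls among 65 genes does not set this list apart. In hCAR/hPXR over Car KO/hPXR mice 55 of the 65 were higher (51.5% of all genes; median log2 fold change 0.21), 6 of them at an unadjusted p under 0.05 (5.6% of all genes), and 1 was lower at that p (5.03%). All 16 other folding enzymes were higher in that comparison (median 0.31), with 1 at an unadjusted p under 0.05. Of 22 genes of translocation and N-glycosylation, 18 were higher, among them Sec61g, the small channel subunit (log2 fold change 0.59, adjusted p = 0.233), and Stt3b, a catalytic subunit of oligosaccharyltransferase (0.83, adjusted p = 0.297). Of 15 other genes of the integrated stress response, the programme around ATF4, 10 were higher and 5 lower. The smallest p of the list in WT CITCO against corn oil mice belonged to Atf5, a factor of the ATF4 family (log2 fold change -0.88, adjusted p = 0.157). Its 3 WT CITCO values, 311, 237 and 364 CPM, were below the corn oil values of 398, 558 and 722. Next was Ppib, a cyclophilin that isomerises prolines (log2 fold change 0.56, adjusted p = 0.282), whose WT CITCO values of 136, 143 and 122 CPM were above the corn oil values of 85.1, 101 and 86.9. In hCAR/hPXR against WT CITCO mice the smallest p was that of Cebpb, a partner of CHOP and an acute phase factor (38.4 to 63.2 against 19.4 to 30.5 CPM; log2 fold change 1.11, adjusted p = 0.184).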

How the data were processed

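Liver RNA of 12 mice was prepared with a QuantSeq 3′ kit and sequenced on an Ion Torrent platform. According to the submitters' processing notes and the methods, the authors used FastQC 11.7, Trimmomatic 36, STAR 2.5.2 and RSEM 1.3 on GRCm38. The authors deposited expected counts (51912 genes, not normalized) and, for 17859 genes, log2-scale values from the variance-stabilising transformation of DESeq2. RSEM divides reads that fit several genes, and 13.8% of values above 0 were not whole (tolerance 0.001).

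Rounded expected counts entered edgeR 4.0.16 under R 4.3.3 (expression filter, TMM, quasi-likelihood test, 12 libraries in one fit, 1 mean per group). Members were called at a Benjamini-Hochberg adjusted p under 0.05 over 8594 genes. DESeq2 1.42.0, limma 3.58.1 on the transformed values, other size factors, no filter on low counts, fits of 2 groups, a fold threshold of 1.5, a replicate block and leaving out each library were alternatives. The script was tested on simulated counts. Depth was 1167008 to 2341557 counts, and counting error limits genes near 3 counts. Coordinates are from GENCODE M21 and promoters from RefSeq on GRCm38. In the main fit, p-values set differences between group means against the spread within groups, estimated from all 12 libraries. The samples were taken as separate mice.

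Members, lists and roles were chosen with earlier results of these data known. Values in every library are given for called members, for the 2 of each role with the smallest p, and for Hspa5, Xbp1, Atf4, Ddit3, Trib3 and Asns. Of the further pathway genes, only called ones and up to 2 per comparison with the smallest p are named.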

Additional observations from a re-analysis of the deposited data

How the results depend on the processing

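The calls of Hspa5 and Creld2 kept their direction under each alternative. The 6 medians of the members moved by less than 0.16, the pooled SD of the library medians within groups. Leaving out 1 of 3 mice moves a group mean by only a part of that mouse's deviation, so this does not show stability. With 1 library left out, the 2 medians nearest 0 crossed 0. Car KO/hPXR against corn oil lay between -0.11 and 0.02, and WT CITCO against corn oil between -0.01 and 0.25. The other 4 lay between 0.23 and 0.43 (hCAR/hPXR against Car KO/hPXR), 0.27 and 0.38 (hCAR/hPXR against corn oil), 0.05 and 0.28 (hCAR/hPXR against WT CITCO) and -0.27 and -0.02 (Car KO/hPXR against WT CITCO). The number of members called was the unstable value. Shares of all genes called under the alternatives are not given here. The counts below therefore show only how the members' calls depend on the processing, not whether members were called more often than other genes. Without a filter on low counts it was 1 for hCAR/hPXR against WT CITCO, 3 for Car KO/hPXR against WT CITCO, 8 for hCAR/hPXR against Car KO/hPXR, 4 for WT CITCO against corn oil, 6 for hCAR/hPXR against corn oil, 1 for Car KO/hPXR against corn oil and 9 among the 4 groups; the cause was not tested. DESeq2, whose own filter left 30 to 39 members with an adjusted p, gave 1, 0, 4, 1, 5 and 0 in the same order of pairs. A fit of only the 2 groups gave 2 for hCAR/hPXR against Car KO/hPXR. With 1 library left out the counts were 0 to 5 for hCAR/hPXR against Car KO/hPXR (main value 1; 0 without hCAR/hPXR replicate 2 or 3 or Car KO/hPXR replicate 1 or 3, 2 without replicate 2 of Car KO/hPXR or of WT CITCO, and 5 once WT CITCO replicate 3 was left out), 0 to 4 for hCAR/hPXR against corn oil (main value 2; 0 without corn oil replicate 1 or 2, 1 without hCAR/hPXR replicate 2 or 3 or corn oil replicate 3, and 4 without hCAR/hPXR replicate 1), 0 to 3 for WT CITCO against corn oil (3 when WT CITCO replicate 3 was left out) and 0 to 4 among the 4 groups (main value 2; 0 without hCAR/hPXR replicate 2, 1 without WT CITCO replicate 1, corn oil replicate 1 or 2, Car KO/hPXR replicate 2 or hCAR/hPXR replicate 3, and 4 without WT CITCO replicate 3); other pairs stayed at 0. Fits with a library left out have fewer samples. The libraries share 1 estimate of the spread, so leaving out 1 of them can also move comparisons that do not hold its group.

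Samples with the same replicate number correlated only weakly in their deviations from the group mean (18 pairs, correlations from -0.06 to 0.07, median 0.03, 0 of them over 0.1). Yet 9 of 12 libraries correlated best with a library of their own number, although most candidates had another number. The numbers were not taken as pairs in the main fit, and a replicate block was an alternative. With the replicate block 1 member was called for hCAR/hPXR against Car KO/hPXR, 2 for hCAR/hPXR against corn oil, 2 among the 4 groups and 0 elsewhere, as without it. Depth limits Derl3, Trib3, Ddit3 and Asns most.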
